A study of Rattus norvegicus with 12 samples.

Results

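The set described here holds the array probes whose signal was at least 2-fold lower in rat microglia after 6 h in medium from alpha-synuclein-producing cells and close to the control level after 24 h. Members were chosen from the measured values: the 12 deposited log2 columns were quantile normalized together, the mean log2 difference between the media had to be -1 or lower at 6 h, and its absolute value had to be under 0.5 at 24 h. The rule took 234 of the 22523 probes on the array. Of these, 194 probes carried a gene symbol and stood for 193 genes, since Marchf2 had 2 member probes, and 40 carried none. All 234 members lay above background on enough arrays to be tested. The same arrays chose the members and gave the values below, so the values are a description of the set, and counts of calls by limma are given beside the share called over all tested probes without being read as support.

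Microglia from rats, cultured immune cells native to brain tissue, were kept for 6 h or 24 h in a 5-fold concentrate of serum-free medium that had been conditioned for 18 h. The donors of the medium were differentiated cells of SH-SY5Y, a human neuroblastoma line, infected with adenovirus at a multiplicity of infection of 100. The virus carried alpha-synuclein in 1 medium (aSCM) and LacZ, which encodes beta-galactosidase, in the control medium (LZCM). Both media therefore came from infected human cells, and no group without conditioned medium was among the 12 samples. Medium and time made 4 groups of 3 arrays. The labels name neither strain nor age of the rats, nor whether the 3 samples of a group were separate cultures or animals, so the spread between arrays may be technical, and a spread between preparations of medium may not be covered.

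Microglia carry receptors for cytokines, chemokines, microbial products and protein aggregates, and an inflammatory stimulus is known to raise many transcripts and to lower many others within hours. Transcripts that are lowered include receptors, adaptors and lipid phosphatases that set the strength of signalling, and genes of metabolism and lysosomes. A transcript level falls when synthesis slows or decay quickens and returns when the balance is restored. Signals of a mixed culture are sums over its cells, so fewer cells of a type and less RNA per cell cannot be told apart.

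At 6 h the members were a median of 2.36-fold lower in aSCM than in LZCM. The log2 difference had a median of -1.24 and ran from -4.34 to -1.0001. It lay at -2 or lower for 17 probes, between -2 and -1.5 for 44 and above -1.5 for 173. The 3 aSCM arrays lay below the 3 LZCM arrays for 234 of 234 members, as they did for 34.3% of all tested probes. By limma 234 were called lower, against a background of 32.2% of tested probes called lower. At 24 h the log2 difference had a median of -0.13 and ran from -0.50 to 0.49, with 157 probes below 0 and 77 above.

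**Figure D1:**
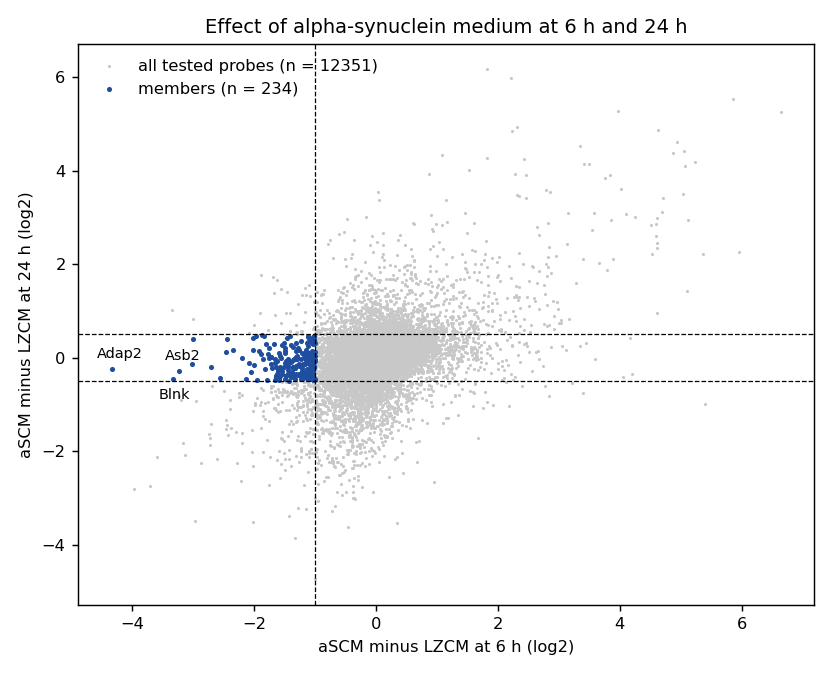
Each point is a probe; the x axis is the log2 difference aSCM minus LZCM at 6 h and the y axis the same difference at 24 h, each between means of 3 arrays. Grey points are the 12351 tested probes, blue points the 234 members, and dashed lines the limits of the rule (-1 at 6 h, 0.5 on either side of 0 at 24 h). The members form the left end of a band about 0 at 24 h, with Adap2, Blnk and Asb2 farthest out.

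The limits cut through a continuous range of values. The members nearest to the 6 h limit were Ndufa8 at -1.00015, Slc39a3 at -1.00153 and Mtarc2 at -1.0049, and the probes that just missed it were Ubac1 at -0.997, Hps3 at -0.996 and Tmem106b at -0.994. At the 24 h limit Tcirg1 at -0.50, Sipa1 at 0.49 and Ccdc34 at -0.48 were inside, and Coq8a at -0.50, Wipi1 at -0.50 and Fut4 at 0.51 were outside. Of 513 probes at least 2-fold lower at 6 h, 240 were still lower by 0.5 or more at 24 h and 39 were higher by 0.5 or more.

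The gene with the lowest 6 h value was Adap2, an Arf GTPase-activating protein that binds phosphoinositides through paired PH domains. Its normalized log2 signal was 11.98, 12.01 and 11.97 on the LZCM arrays at 6 h and 7.68, 7.71 and 7.56 on the aSCM arrays. At 24 h it was 11.43, 11.25 and 11.24 in LZCM and 11.10, 11.05 and 11.05 in aSCM. The 6 h groups stood more than 4 log2 units apart, while at 24 h the aSCM arrays lay just under the LZCM arrays without overlap. The 6 h difference was -4.34 ± 0.07 (SE), or 20.2-fold, the 24 h difference was -0.24, and the level in aSCM at 24 h was 10.7-fold that at 6 h.

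Blnk, the adaptor that links the kinase Syk to phospholipase C in B cells and is also made in macrophages, came next. Its log2 signal at 6 h was 11.95, 11.84 and 11.89 in LZCM and 8.56, 8.48 and 8.62 in aSCM. At 24 h it was 11.20, 11.21 and 11.58 in LZCM and 10.75, 10.84 and 11.02 in aSCM. The aSCM arrays were the lower ones at both times, by 10.1-fold at 6 h (-3.34 ± 0.09, SE) and by a log2 difference of -0.46 at 24 h. Asb2, the substrate-binding subunit of a cullin-RING ubiquitin ligase that targets filamins, was 9.41-fold lower at 6 h (-3.23 ± 0.13, SE). Its arrays read 10.48, 10.89 and 10.69 in LZCM and 7.69, 7.32 and 7.35 in aSCM at 6 h, then 9.85, 9.31 and 9.59 in LZCM and 9.42, 9.24 and 9.24 in aSCM at 24 h. The 24 h groups of Asb2 overlapped, and its level in LZCM was itself lower at 24 h than at 6 h.

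The promoters of these 3 genes are shown because they are the members with the lowest 6 h values. The sequences come from RefSeq (build GRCr8), are written 5′ to 3′ on the gene's own strand and end at the last base before the first annotated base of the gene. Capitals mark matches, on either strand, to 7 short motifs: GGGCGG (the GC box), CCAAT (the site of the factor NF-Y), GAGGAA (an ETS core), TTTGAA (a core of TCF sites) and TGACGT (the core of the CRE), with CACGTG (the E-box) and TGAGTCA (the AP-1 site). The stretch of Adap2 lies at chr10:65635740-65635890 on the plus strand and holds none of the motifs, that of Blnk at chr1:249770534-249770783 on the minus strand and holds CCAAT, and that of Asb2 at chr6:128275834-128275900 on the minus strand and holds CACGTG.
Adap2: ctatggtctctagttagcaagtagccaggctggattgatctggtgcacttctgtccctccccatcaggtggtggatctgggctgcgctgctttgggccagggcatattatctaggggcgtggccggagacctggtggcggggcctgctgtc
Blnk: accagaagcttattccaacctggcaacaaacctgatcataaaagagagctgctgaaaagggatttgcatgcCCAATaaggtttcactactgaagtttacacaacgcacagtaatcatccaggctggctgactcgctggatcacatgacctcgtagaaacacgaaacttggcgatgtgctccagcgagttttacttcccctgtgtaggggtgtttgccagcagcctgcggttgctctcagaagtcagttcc
Asb2: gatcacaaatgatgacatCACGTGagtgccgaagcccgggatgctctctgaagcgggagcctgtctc

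The printed stretches of Adap2 and Asb2, of 151 and 67 bases, are shorter than the 250 bases of Blnk because the table counts its 250 bases from a start inside those genes, and what they hold refers to the printed letters only. Over the full 250 bases before the table's start, 166 member genes had a promoter in the RefSeq table and were set beside 7159 tested genes and all 27457 promoters of the table. GGGCGG was found on either strand in 60.2% of the members' promoters, 57.4% of those of tested genes and 32.4% of all. CCAAT was found in 37.3%, 35.4% and 34.3%, and GAGGAA in 21.7%, 23.0% and 23.2%. TTTGAA was found in 12.7%, 10.5% and 16%, TGACGT in 9.6%, 10.8% and 7.2%, CACGTG in 5.4%, 8.3% and 5.8%, and TGAGTCA in 2.4%, 3.2% and 4.0%. Median GC content was 59.4% in the members, 59.6% in tested genes and 52.0% in all promoters. The members' shares lay near those of the tested genes for each of the 7 motifs, and a match in these windows is a description of the letters only.

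The other genes among the 12 lowest covered RNA editing, cytokine reception, lipid kinases, sugar breakdown and inflammasome assembly. Apobec1, the cytidine deaminase that edits apolipoprotein B mRNA, read 13.62, 13.71 and 13.76 in LZCM and 10.79, 10.68 and 10.57 in aSCM at 6 h. At 24 h it read 13.05, 13.10 and 13.05 in LZCM and 12.85, 13.02 and 12.93 in aSCM. Its aSCM arrays lay 8.10-fold lower at 6 h and were the lower ones at 24 h by a margin that the fit did not call. Otulinl, a relative of the deubiquitinase OTULIN that lacks its activity, was 8.0-fold lower at 6 h, with LZCM arrays from 12.20 to 12.31 and aSCM arrays from 9.04 to 9.44. At 24 h the order of the media was turned, with aSCM arrays at 11.71 to 11.88 above LZCM arrays at 11.22 to 11.54. Il6r, the ligand-binding chain of the interleukin-6 receptor, was 6.53-fold lower at 6 h, with 9.90, 9.95 and 9.74 in LZCM and 7.15, 7.30 and 7.02 in aSCM. At 24 h Il6r read 9.14, 9.25 and 9.35 in LZCM and 8.95, 9.08 and 9.08 in aSCM, so that its groups stood apart by a small gap.

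Npl, the lyase that breaks down sialic acid, was 5.89-fold lower at 6 h and had a 24 h difference of -0.43. Cerk, ceramide kinase, read 12.81, 12.89 and 12.78 in LZCM and 10.44, 10.47 and 10.19 in aSCM at 6 h, a 5.51-fold difference. At 24 h Cerk read 12.79, 12.83 and 12.81 in LZCM and 12.96, 12.94 and 12.90 in aSCM. The LZCM level of Cerk was thus nearly the same at both times, and the aSCM level was the one that moved. Pycard, the adaptor ASC that joins inflammasome sensors to caspase-1, had the same course: 11.52, 11.51 and 11.50 in LZCM against 9.15, 9.03 and 9.31 in aSCM at 6 h, then 11.46, 11.37 and 11.47 against 11.58, 11.65 and 11.56 at 24 h. Its 6 h difference was 5.08-fold, and at 24 h its aSCM arrays were the higher ones. Mboat1, a lysophospholipid acyltransferase, was 5.44-fold lower at 6 h. Inpp5d, which encodes the lipid phosphatase SHIP1, was 4.63-fold lower at 6 h and overlapped between the media at 24 h, with a difference of -0.01. Calhm2, of the calcium homeostasis modulator channel family, was 4.40-fold lower at 6 h and had a 24 h difference of -0.45.

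**Figure D2:**
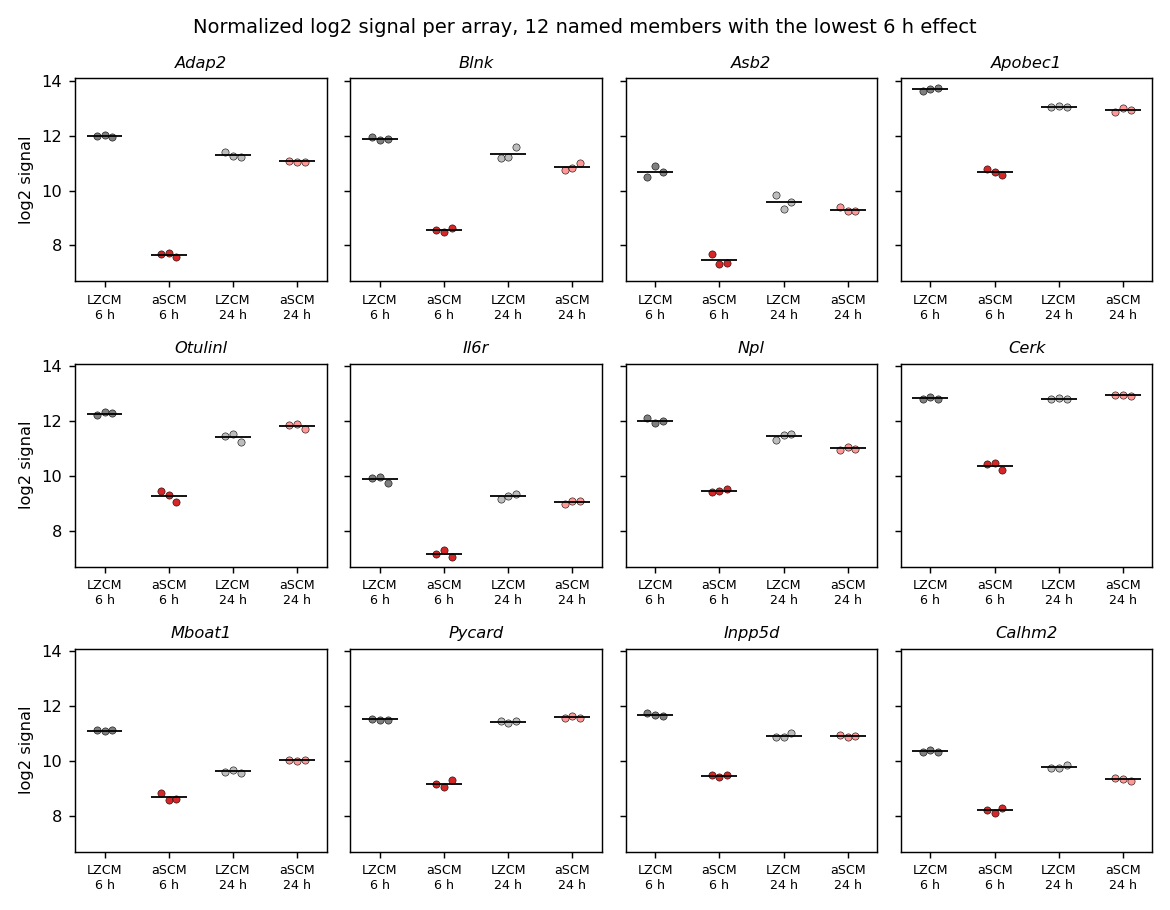
Normalized log2 signal (y axis) of the 12 named members with the lowest 6 h difference, by group (x axis); each dot is 1 array and each bar the mean of 3 arrays. In every panel the 3 aSCM arrays at 6 h lie below the other 9 arrays. At 24 h the media lie within 0.5 log2 units of each other, as the rule requires, with LZCM below its own 6 h level for Mboat1 and Asb2 and near it for Cerk and Pycard.

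A small difference at 24 h can come about by a rise in aSCM, by a fall in LZCM or by both, and the rule does not say which. The members' median log2 signal was 10.33 in LZCM and 9.01 in aSCM at 6 h, and 10.18 in LZCM and 10.11 in aSCM at 24 h. From 6 h to 24 h the median log2 change was 1.05 in aSCM (range -0.14 to 3.41) and -0.18 in LZCM (range -1.49 to 0.62). Over all tested probes these medians were 0.02 and -0.01. The rise in aSCM made up a median of 85.8% of the narrowing of the gap. In aSCM 222 members were called higher at 24 h than at 6 h, where 33.3% of tested probes were, and 0 were called lower, where 29.1% were. In LZCM 114 were called lower, where 19.8% of tested probes were, and 27 were called higher, where 19.9% were. Since a low 6 h level in aSCM and a high one in LZCM both favoured selection, these counts are not independent of the rule. The difference between the 24 h and the 6 h effect was called for 234 members, all towards a higher value at 24 h, where 28.4% of tested probes were; the rule fixes that direction.

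The 234 members fell into 4 patterns by these calls. In 102 members (43.6%) the level rose in aSCM and fell in LZCM, with median log2 changes of 0.94 and -0.47. In 93 (39.7%) it rose in aSCM by a median of 1.10 with no call in LZCM, where the median was -0.00. In 27 (11.5%) it rose in both media, by a median of 1.30 in aSCM and 0.31 in LZCM. In the last 12 (5.1%) the level fell in LZCM with no call in aSCM. The share of all tested probes with each joint pattern is not given here, so nothing is read from these counts. A fall in LZCM was called for 48.7% of the members. It was also called for 45.8% of the 240 probes still lower at 24 h and 84.6% of the 39 that were higher.

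**Figure D3:**
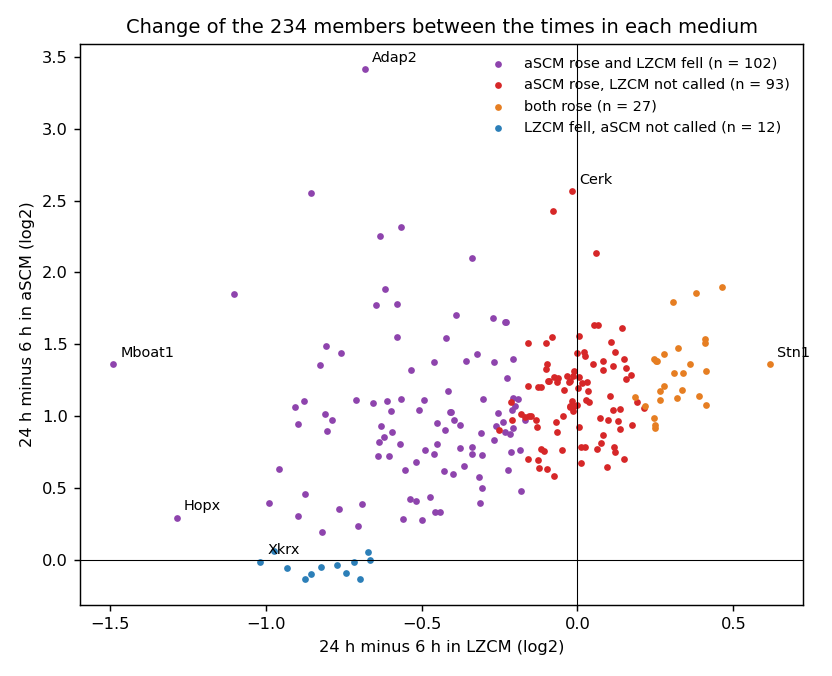
Log2 change from 6 h to 24 h in LZCM (x axis) and in aSCM (y axis) for the 234 members; each point is a probe, from means of 3 arrays, coloured by which changes limma called. Most points lie above 0 in aSCM; the 12 blue points lie near 0 in aSCM and at -0.67 or lower in LZCM.

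The largest rises in aSCM were those of Adap2 (3.41), Cerk (2.57), Otulinl (2.56), Pycard (2.43), Blnk (2.32) and Apobec1 (2.25), all on the log2 scale. Changes of LZCM in the same genes differed: -0.02 for Cerk and -0.08 for Pycard, neither called, and -0.85 for Otulinl, -0.68 for Adap2, -0.63 for Apobec1 and -0.56 for Blnk, all called. The largest falls in LZCM were those of Mboat1 (-1.49), Hopx (-1.29), Asb2 (-1.10), Galc (-0.99) and St8sia4 (-0.97). Xkrx, of the XK-related family, was not above background on the LZCM arrays at 24 h, so its fall there is a bound of at least 1.49-fold. Hopx, an atypical homeodomain protein that does not bind DNA, read 11.49, 11.33 and 11.58 in LZCM and 9.73, 9.72 and 9.48 in aSCM at 6 h. At 24 h Hopx read 10.16, 10.28 and 10.10 in LZCM and 9.94, 9.90 and 9.97 in aSCM. Its LZCM arrays came down most of the way to the aSCM level, and its rise in aSCM was 0.29. Galc, the lysosomal galactosylceramidase, had the same form, with a rise of 0.40 in aSCM and overlapping groups at 24 h.

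For 12 probes the word recovered is not borne out, because no change was called in aSCM between the times and the control came down. In the 11 that were above background in LZCM at 24 h, the log2 change in LZCM ran from -0.97 to -0.67. In the 6 that were above background in aSCM at both times, the log2 change in aSCM ran from -0.14 to 0.06. The 8 with a symbol were St8sia4, Susd3, Mif4gd, Gal3st4, Kazald1, Xkrx, Aurka and Mtus1. St8sia4, a polysialyltransferase, read 9.17, 9.14 and 9.21 in LZCM and 7.71, 7.68 and 7.65 in aSCM at 6 h, then 8.14, 8.26 and 8.21 in LZCM and 7.74, 7.69 and 7.79 in aSCM. Both aSCM groups lay together below both LZCM groups. Aurka, a mitotic kinase, had group means of 9.87 and 8.83 at 6 h in LZCM and aSCM and of 9.10 and 8.79 at 24 h. In 5 of the 12, among them Susd3, Gal3st4 and Xkrx, no aSCM array was above background at 6 h or at 24 h. Only a bound on the level is known there, and a change in aSCM could not be measured.

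In the 27 members that rose in both media the control moved up as well. Stn1, a subunit of the CST complex at telomeres, read 8.78, 8.86 and 8.84 in LZCM and 7.80, 7.78 and 7.70 in aSCM at 6 h. At 24 h Stn1 read 9.46, 9.47 and 9.40 in LZCM and 9.16, 9.08 and 9.12 in aSCM. Its aSCM level at 24 h therefore passed the control level of 6 h while staying under the control of its own time. Uqcc5, a factor for assembly of mitochondrial complex III, rose by 1.90 in aSCM and 0.46 in LZCM and was higher in aSCM at 24 h. Others of this kind were Glg1 (1.86 and 0.38), Tmem50b (1.79 and 0.30), Snx24 (1.54 and 0.41) and Trappc1 (1.51 and 0.41), with the change in aSCM given first.

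Being within 0.5 at 24 h was not the same as being equal. By limma 104 members were called lower in aSCM at 24 h, against 29.2% of tested probes, 34 were called higher, against 30.8%, and 96 were not called. With arrays scaled to a common 75th percentile the counts were 69 lower and 57 higher, and with the deposited values left as they are they were 66 and 6. The aSCM and LZCM arrays did not overlap at 24 h for 163 members (69.7%), as for 64.4% of tested probes. Members lower at 24 h included Npl (-0.43), Pdk2 (-0.40) and Wipf1 (-0.47). Members higher at 24 h included Abcg1 (0.47), Irf5 (0.47), Ctsc (0.42) and Casp9 (0.40). For 127 members the absolute difference was under 0.25.

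To describe what the members do, 83 of the 193 genes were sorted by known function into 10 groups after their values had been seen, and the other 110 were left unsorted. The counts of each group below stand beside 33.3% of all tested probes that rose in aSCM, 19.8% that fell in LZCM, and 29.2% called lower and 30.8% called higher in aSCM at 24 h. The choice of members favours a rise in aSCM and a fall in LZCM, and the 24 h calls depend on scaling as given above, so nothing is read from these counts. The first group, of 9 genes, acts downstream of immunoreceptors with tyrosine-based motifs or on phosphoinositides. It held Adap2, Blnk and Inpp5d with Dapp1, Lat2, Lcp2, Dok3, Pik3cd and Prkch. Dapp1, an adaptor that binds products of PI 3-kinase, was 4.05-fold lower at 6 h, with 10.90, 10.56 and 10.82 in LZCM against 8.72, 8.74 and 8.77 in aSCM, and overlapped at 24 h. Pik3cd, the delta catalytic subunit of PI 3-kinase, was 2.98-fold lower, with 8.58, 8.74 and 8.70 against 7.17, 7.11 and 7.02, and its 24 h difference was 0.04. Kinase side and phosphatase side of this lipid step, Pik3cd and Inpp5d, were thus both lower at 6 h. The adaptors Lat2 and Lcp2 were 2.49-fold and 2.22-fold lower, and Dok3, an adaptor that dampens such signalling, was 2.59-fold lower. All 9 rose in aSCM between the times, and 8 fell in LZCM.

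The receptors and innate sensors formed a group of 12. Cx3cr1, the fractalkine receptor that marks resting microglia, read 8.77, 8.91 and 8.92 in LZCM and 6.81, 6.85 and 6.93 in aSCM at 6 h. No aSCM array at 6 h was above background for Cx3cr1, so it was at least 3.68-fold lower there, and it rose at least 1.77-fold in aSCM by 24 h. At 24 h it read 7.90, 8.05 and 7.96 in LZCM and 7.79, 7.88 and 7.75 in aSCM, with both media under the 6 h control. Cd180, a Toll-like receptor relative that pairs with MD-1, was 2.23-fold lower at 6 h and overlapped at 24 h. Irf5, a transcription factor downstream of Toll-like receptors, was 2.02-fold lower at 6 h and 0.47 higher at 24 h on the log2 scale. Unc93b1, which carries endosomal Toll-like receptors, was 2.06-fold lower, and Tifa, an adaptor of TRAF6, was 3.39-fold lower. Tnfaip8l2, a restraint on Toll-like and T-cell receptor signalling, was 2.52-fold lower, so the group held both activators and inhibitors. Clec4a3, a C-type lectin receptor of the DCIR family, was 2.91-fold lower at 6 h and still -0.35 at 24 h. All 12 rose in aSCM, 9 fell in LZCM, and at 24 h 6 were called lower, 1 higher and 5 not.

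Among 8 regulators of transcription and RNA were the ETS factor Fli1 and the homeobox factor Hhex, both known from blood cell development. Fli1 read 11.82, 11.88 and 11.89 in LZCM and 10.10, 10.09 and 10.12 in aSCM at 6 h, then 11.55, 11.55 and 11.68 and 11.79, 11.86 and 11.72 at 24 h. Its media were 3.38-fold apart at 6 h, and aSCM was the higher one at 24 h, by 0.20. Hhex was 2.82-fold lower at 6 h and differed by 0.14 at 24 h. Zfp36l1, which binds AU-rich elements and promotes mRNA decay, was 2.72-fold lower at 6 h and differed by -0.02 at 24 h.

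The regulators of small GTPases and the cytoskeleton numbered 12. Sipa1, an activator of the GTPase activity of Rap, was 3.67-fold lower at 6 h and, at 0.49, closest to the upper 24 h limit. Wipf1, the partner of the Wiskott-Aldrich syndrome protein, was 3.47-fold lower at 6 h and at -0.47 close to the lower limit. Abi3, a component of the WAVE complex, was not above background on the aSCM arrays at 6 h and was at least 2.61-fold lower. All 12 rose in aSCM and 9 fell in LZCM.

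There were 7 genes of the lysosome and glycan breakdown and 7 of lipid metabolism. Ctsc, the protease cathepsin C, read 13.71, 13.74 and 13.75 in LZCM and 11.79, 11.82 and 11.55 in aSCM at 6 h, a 4.04-fold difference. At 24 h it read 13.37, 13.46 and 13.36 in LZCM and 13.77, 13.96 and 13.73 in aSCM, with aSCM on top. In the lysosomal group 4 were called lower at 24 h, among them Tcirg1, a subunit of the proton pump, and Manba, beta-mannosidase, and Ctsc was the 1 called higher. In the lipid group 0 were called lower and 5 higher: Mboat1, Abcg1, Tbxas1, Hsd3b7 and Abhd6. Abcg1, the cholesterol exporter, read 12.80, 12.91 and 12.72 in LZCM and 11.34, 11.37 and 11.47 in aSCM at 6 h and was 2.67-fold lower. At 24 h Abcg1 read 12.55, 12.57 and 12.61 in LZCM and 13.10, 13.02 and 13.03 in aSCM, above both control groups. Tbxas1, thromboxane synthase, was 2.82-fold lower at 6 h and 0.22 higher at 24 h. The groups were sorted after their values were seen, and a difference between them was not tested.

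The mitochondrial and peroxisomal genes (11) had 6 h differences from -1.62 to -1.0001. Pdk2, a kinase that inactivates pyruvate dehydrogenase, read 9.20, 9.31 and 9.10 in LZCM and 7.59, 7.62 and 7.55 in aSCM at 6 h, 3.07-fold lower, and Echs1, an enzyme of fatty acid beta-oxidation, was 3.06-fold lower. Ivd and Gcdh, dehydrogenases of amino acid breakdown, were 2.62-fold and 2.52-fold lower. Ndufa8, a subunit of complex I, lay on the 6 h limit at 2.00-fold. All 11 rose in aSCM, 4 fell in LZCM, and at 24 h 6 were called lower and 0 higher.

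Of 9 genes of genome maintenance, Chek2, the checkpoint kinase, was 3.42-fold lower at 6 h, with 9.57, 9.51 and 9.57 in LZCM and 7.81, 7.86 and 7.65 in aSCM, and overlapped at 24 h. Smarcal1, an annealing helicase at stalled forks, was 2.81-fold lower, and Parp2 was 2.57-fold lower. The apoptosis genes Bmf, Casp6, Casp9 and Dapk1 lay just past the 6 h limit, at 2.03-fold to 2.09-fold lower, whereas in the wider apoptosis list 18 of 27 probes were called higher at 6 h and 7 lower. At 24 h Casp6 and Casp9, an executioner and an initiator caspase, were higher in aSCM by 0.32 and 0.40, and Bmf, a BH3-only protein that promotes death, and Dapk1 were not called. The ubiquitin group held Asb2, Marchf2, Rnf166 and Fbxl20. Both probes of Marchf2, a membrane-bound ubiquitin ligase, were members, at -1.54 and -1.47 at 6 h and at -0.29 and -0.13 at 24 h.

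**Figure D4:**
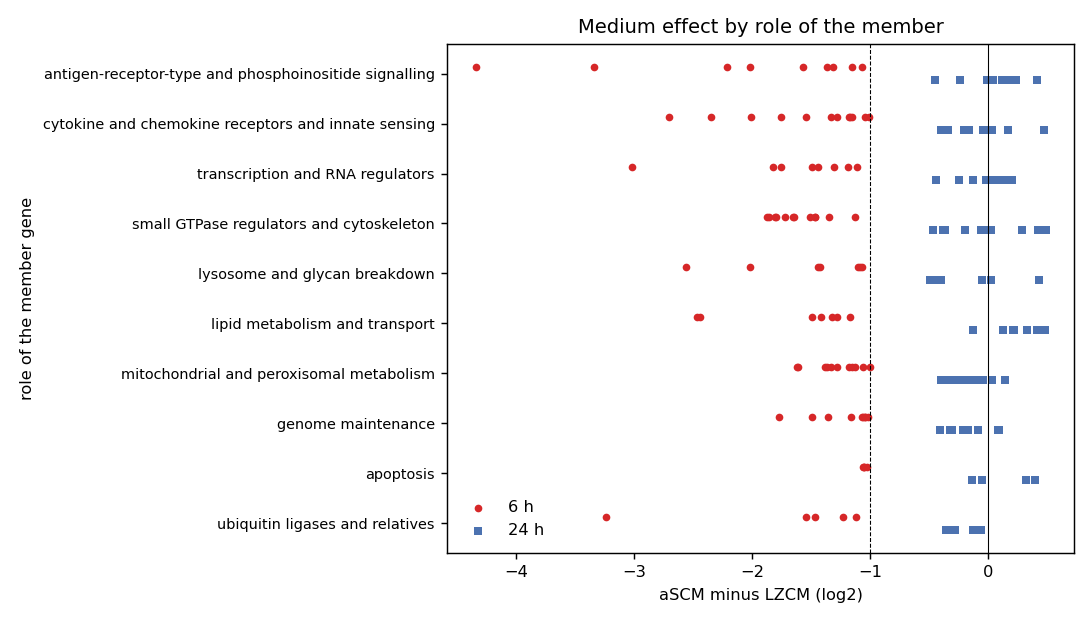
Log2 difference aSCM minus LZCM (x axis) at 6 h (red circles) and 24 h (blue squares) for the 83 member genes sorted into 10 groups of function (y axis); each symbol is 1 probe, from means of 3 arrays. The dashed line is the 6 h limit of the rule. Red circles reach farthest left for Adap2 and Blnk in the first row, and blue squares lie mostly right of 0 in the lipid row and mostly left of it in the mitochondrial row.

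Wider lists show how much of each pathway the members make up. At 6 h 32.2% of all tested probes were called lower and 25.9% higher, and at 24 h 29.2% and 30.8%. Of 26 pathway lists, 15 held at least 1 member, 20 genes in all. In some lists the members went against most of the called probes. The apoptosis list held Bmf, Casp6 and Casp9, and of its 27 tested probes 7 were called lower and 18 higher at 6 h, at a median log2 difference of 0.46. The list of myeloid transcription factors held Fli1 and Hhex, with 4 of 25 probes lower and 16 higher. The interferon list held Irf5, with 5 of 27 lower and 19 higher, and the list of Toll-like receptor and NF-kB signalling held Cd180, with 7 of 30 lower and 17 higher. Calls were split in the PI 3-kinase and MAP kinase phosphatase list, which held Inpp5d and Pik3cd, with 10 of 30 lower and 13 higher. They were also split in the glycolysis list, which held Pdk2, with 9 of 28 lower and 10 higher. Other lists had more probes called lower than higher. The list of oxidative phosphorylation held Ndufa8, with 25 of 34 probes lower and 1 higher at 6 h, and the list of phagocytic, scavenger and Fc receptors held Clec4a3, with 17 of 23 lower and 3 higher. The lysosome and autophagy list held Ctsc, with 19 of 36 lower and 8 higher, and the list of lipid export held Abcg1, with 12 of 24 lower and 7 higher. Cx3cr1 was a member from the list of chemokine and purinergic receptors, with 11 of 25 lower and 6 higher, and from that of homeostatic microglia, with 14 of 23 lower and 4 higher at 6 h. At 24 h 17 of the 23 homeostatic probes were called lower and 3 higher, and the median of the list was -0.74. Cx3cr1 was the only member from that list. The cell cycle lists held Aurka for G2/M, where 36 of 41 probes were lower at 6 h and 38 at 24 h, and Tyms, thymidylate synthase, for G1/S, where 24 of 40 were lower at 6 h and 36 at 24 h. Over all tested probes the median was -0.02 at 6 h and 0.03 at 24 h.

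Other probes for the members' genes, those that did not themselves meet the rule, sat on the same arrays. There were 10, for 10 genes, and 7 were tested. At 6 h 6 of the 7 were called lower and 1 higher, where 32.2% and 25.9% of all tested probes were, with a median log2 difference of -0.55. Of the 7, 5 lay within 0.5 at 24 h and 2 at -1 or lower at 6 h. None could do both, because probes that met the rule were left out. The other probe of St8sia4 was at -1.60 ± 0.07 (SE) at 6 h and -0.66 at 24 h, and that of Fundc1, a receptor for mitophagy, was at -1.27 ± 0.06 (SE) and -0.80. Those of Gtf2ird1, Fcsk, Hltf and Manba were lower by 0.58, 0.55, 0.45 and 0.38 at 6 h. Their member probes were lower by more, which the choice of members favours. The probe that went the other way belonged to Dnai7, at 0.31 ± 0.08 (SE) against -1.89 for its member probe, so the 2 probes of that gene disagree.

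Markers of microglia were high on every array, with 10 or 11 of 11 probes above background, and some markers of other cells were also above background. In some lists few probes were above background on an array. These were 1 to 3 of 5 endothelial, 2 to 3 of 7 lymphocyte and 0 to 2 of 6 monocyte or neutrophil probes. Of 6 fibroblast or pericyte probes 1 to 2 were. Sums of these lists below therefore hold much background. The summed linear signal of 10 oligodendrocyte-lineage probes was 12960 to 14540 in LZCM and 7850 to 8555 in aSCM at 6 h, and 36940 to 37720 and 7615 to 8452 at 24 h. That of 7 astrocyte probes was 8347 to 8598 and 4980 to 5218 at 6 h, and 16080 to 17640 and 3680 to 3761 at 24 h. Neuronal markers were 3485 to 3919 and 3612 to 3912 at 6 h, with overlap, and 6256 to 6808 and 2105 to 2183 at 24 h. Fibroblast or pericyte markers were 1247 to 1399 and 1030 to 1181 at 6 h, and 2427 to 2561 and 771.2 to 853.1 at 24 h. Of those 6 probes only that of Col1a2, a collagen chain, was above background in all 4 groups, and it was lower in aSCM at 24 h by 2.87 on the log2 scale, while Dcn, decorin, was higher. The 6 monocyte or neutrophil probes went the other way at 24 h, with 614.1 to 649.7 in LZCM and 1182 to 1264 in aSCM, and overlapped at 6 h. Lymphocyte markers were 1387 to 1488 and 1157 to 1217 at 6 h and 1216 to 1336 and 1075 to 1158 at 24 h. Border macrophage markers were 2296 to 2580 and 1950 to 2115 at 6 h and overlapped at 24 h, and endothelial markers stayed between 570.5 and 632.2 in all groups. No gene of these 8 lists was a member. The summed signals of the oligodendrocyte-lineage, astrocyte, neuronal, fibroblast, monocyte and microglial lists differed more between the media at 24 h than at 6 h. The members' closeness at 24 h was set by the rule and is not compared with these lists. Cx3cr1 was the 1 member among the microglial markers. Their summed signal was 218100 to 227000 in LZCM and 185100 to 192200 in aSCM at 6 h. At 24 h it was 203300 to 214900 and 138300 to 142700. A sum follows its brightest probes, and the 11 probes were split. At 6 h 6 were called lower and 2 higher, and at 24 h 5 lower and 3 higher, at median log2 differences of -0.19 and -0.09. Over all tested probes 32.2% were lower and 25.9% higher at 6 h, and 29.2% and 30.8% at 24 h. The part of other cells in the members' values was not tested.

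**Figure D5:**
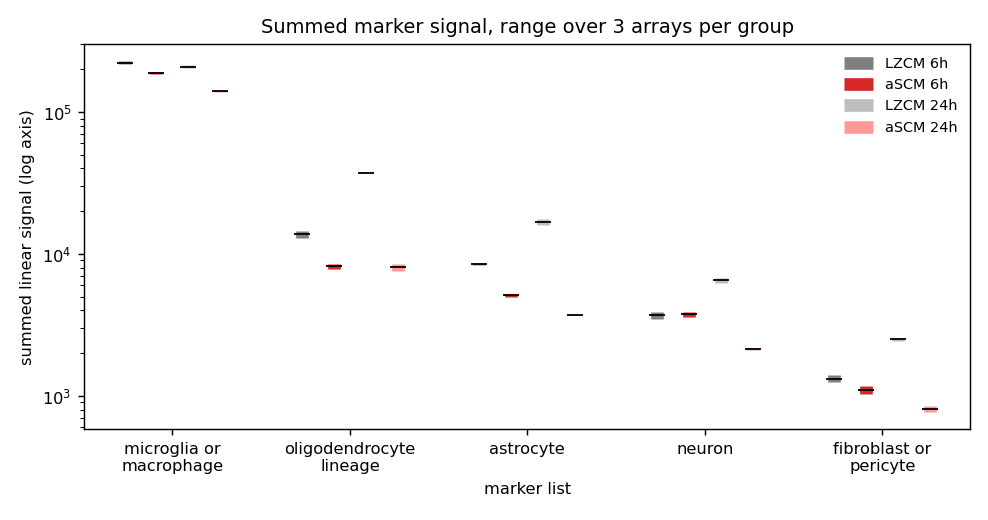
Summed linear signal (y axis, log axis) of the probes of 5 marker lists (x axis) in the 4 groups; each bar spans the lowest to the highest of 3 arrays and the black dash is the geometric midpoint. The sums of oligodendrocyte-lineage, astrocyte, neuronal and fibroblast or pericyte markers were highest in LZCM at 24 h. That of microglial markers was lowest in aSCM at 24 h, though single microglial probes were called in both directions. The fibroblast or pericyte sum holds much background.

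On each array 10871 to 11443 probes were above background. The 3 aSCM arrays at 24 h, with 10871, 11015 and 10911, had fewer than any other array. Array medians before normalization lay between 6.77 and 7.19 on the log2 scale, and arrays of 1 group correlated at 0.996 to 0.998. No measure of RNA quality was used here. Signals of members reached at most 14.70 on the log2 scale, under the array maximum of 15.93. Of the 234 members, 215 were above background on all 12 arrays and 12 on no aSCM array at 6 h. The median standard error of a 6 h difference was 0.07, and the number of arrays limits that precision. Background left in the signal understates the fold differences of dim probes.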

How the data were processed

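RNA of 12 samples was measured on Illumina bead arrays. The deposited table holds 1 log2 signal per probe and array, not normalized between arrays by the authors; its log base is an inference from the range of the values. The submitters' processing notes name R 2.9.1; background handling by the scanner software is not given in the sources used here. The 12 log2 columns were quantile normalized together without background correction. Probes above background on at least 3 arrays were tested (12351 of 22523); background was the mode of an array's signals with the spread of those below it, at a one-sided p of 0.05. The 12 arrays were fitted together with limma as 4 group means (lmFit and eBayes, limma 3.58.1, R 4.3.3), with Benjamini-Hochberg adjustment over the tested probes and calls at an adjusted p under 0.05. The pipeline was tested on simulated data. The authors' own normalized log2 values served as an alternative. Where no array of a group was above background, folds are bounds against the array's lowest signal above background.

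Gene symbols came from the platform's annotation: 13793 probes had 1, 0 had several and 8730 had none; 13752 were matched by gene ID to RefSeq (GRCr8). The members, gene lists and naming rule were chosen with earlier results of these data known. The rule named the 12 genes with the lowest 6 h difference, 6 each with the largest rise in aSCM and fall in LZCM, up to 4 per pathway list, and 3 probes on each side of each limit; further genes were named by function after their values were seen. Alternatives covered normalization, background correction, filter, thresholds, replicate block, array weights, arrays in the fit and each array left out. Results of 1 gene list and its members are not reported here.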

Additional observations from a re-analysis of the deposited data

Results flagged for a closer look

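The effect of the medium differed between 24 h and 6 h for 234 of the 234 members by limma (adjusted p under 0.05), where 28.4% of all tested probes were called in that direction. The 24 h difference minus the 6 h difference had a median of 1.18 and ran from 0.55 to 4.10 on the log2 scale, against a median of 0.02 over all tested probes. The sign is fixed by the choice of members, so the count carries no information beyond the choice. Groups of 3 arrays were too small for the check on single outlying arrays.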

How the results depend on the processing

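The size of the set followed the limits and the scaling. There were 433 members with a 6 h limit of -0.8, 61 with -1.5 and 127 with a 24 h limit of 0.25. With no normalization between arrays there were 390, and the authors' normalized values gave 236, of which 226 were shared. The median 6 h difference of all tested probes was -0.02 as reported, 0.10 with 75th percentile scaling and -0.15 with no normalization. The 24 h calls changed too, from 104 lower and 34 higher to 69 lower and 57 higher with the 75th percentile, and 66 lower and 6 higher with no normalization, which also gave 1 member higher at 24 h in LZCM and a median LZCM change of -0.36. The median change in aSCM was 0.96 with cyclic loess and 1.18 with background correction (normexp, offset 16).

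Leaving out each array in turn gave 218 to 241 members, of which 210 to 231 were among the original 234. Calls were then 233 to 234 lower at 6 h, 92 to 106 lower and 29 to 36 higher at 24 h, 219 to 222 higher in aSCM, 101 to 116 lower and 23 to 29 higher in LZCM, and 233 to 234 for the difference between times. With any LZCM array at 6 h left out, 233 members were in the fit and all were called lower at 6 h. Xkrx was then not tested, because it was above background only on the 3 LZCM arrays at 6 h. Medians were 1.02 to 1.08 in aSCM and -0.19 to -0.17 in LZCM. The 263 alternative values of single named genes, other than those that left out an array, kept their direction and call. A fit with the replicate number as a block gave 105 members lower at 24 h and 117 lower in LZCM, against 104 and 114, with no other count moved. Deviations of same-numbered arrays correlated at -0.12 to 0.29, over 0.1 in 6 of 18 pairs. Differently numbered arrays were not set beside them, so whether the numbers pair the samples was not tested.

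Signal over background limits 12 members that were above background on no aSCM array at 6 h. With 3 arrays a group, of unknown origin, the spread between cultures and between preparations of medium is not known to be covered. Only 7 other probes could be set beside the members.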
